A study of Mus musculus with 8 samples.

Results

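Transcripts of 10 transcription factors that build and maintain heart muscle were followed in mouse hearts with and without chronic kidney disease. The genes were Nkx2-5, Irx4, Gata4, Gata6, Tbx5, Tbx20, Hand2, Mef2a, Mef2c and Mef2d, taken by symbol from a deposited table of read counts. Each symbol matched 1 row, so 10 of the 27304 genes in the table were members, and 10 of 10 passed the low-count filter that left 20093 genes for testing. Both groups were male mice of the inbred strain 129/Sv. The control group (4 libraries, titled Sham, with no operation named in the labels) ate a standard diet for 13 weeks, and the adenine group (4 libraries) ate chow with 0.15% adenine for 13 weeks. Adenine in the diet damages kidney tubules and is used to model chronic kidney disease, which the labels report by plasma creatinine, urea and kidney histology. RNA came from snap-frozen heart tissue, and no chamber is named.

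The labels do not say that libraries came from separate animals, and the deposited design text calls the samples unreplicated. The p-values below therefore measure the spread between these libraries, which may be technical. Libraries held 15626620 to 33886385 counts, and members were counted with 183 to 4872 reads per library. The 12 heart muscle markers, such as Myh6 and Tnnt2, had reads in every library, and their CPM (counts scaled to library size with TMM factors) summed to 50059 to 64107 in the controls and 36541 to 59116 on adenine. In bulk tissue, fewer cells of a type and less RNA per cell cannot be told apart.

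These factors act as a network in the developing heart. NKX2-5 and IRX4 carry a homeodomain, GATA4 and GATA6 zinc fingers, TBX5 and TBX20 a T-box, HAND2 a basic helix-loop-helix and the MEF2 proteins a MADS box. They bind one another's promoters and share targets such as the natriuretic peptide and contractile protein genes. In the adult they stay on in cardiomyocytes, where GATA4 and the MEF2 proteins take part in hypertrophic growth, and several are also transcribed in cardiac fibroblasts. Chamber matters for some of them. TBX5 is most abundant in the atria and IRX4 is a ventricular factor.

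The adenine and control diets were compared across all genes, and no member passed the test. Of the 10 members, 0 were called higher and 0 lower at an adjusted p under 0.05 (edgeR quasi-likelihood test), with adjusted p-values of 0.26 to 0.948. Of all 20093 genes 8 were called higher (0.0398%) and 0 lower (0%), and without adenine 3 these counts were 37 and 30. At an unadjusted p under 0.05, 2 of 10 members, Nkx2-5 and Gata4, were lower and 0 higher, against 6.63% of all genes lower and 10.9% higher. These shares cover genes of every level, and none was taken for well-expressed genes alone. The libraries of the diets overlapped for 10 of 10 members, whereas 3.45% of genes lay wholly higher and 3.84% wholly lower on adenine. DESeq2 called 0 of 10 members, against 1.43% of the genes to which it gave an adjusted p.

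Most members had negative values, as did most well-expressed genes. The log2 fold change, adenine minus control, was negative for 8 members and positive for 2, and its median was -0.29. Over all genes tested 45.8% were negative and the median was 0.05. Among the 8428 genes that averaged 10 CPM or more, as the members do, 77.9% were negative and the median was -0.15. A count of 8 in 10 is near that share. Upper-quartile scaling moved the median of all genes to 0.2 and that of the members to -0.14, and Mef2c then stood at 0.01.

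**Figure D1:**
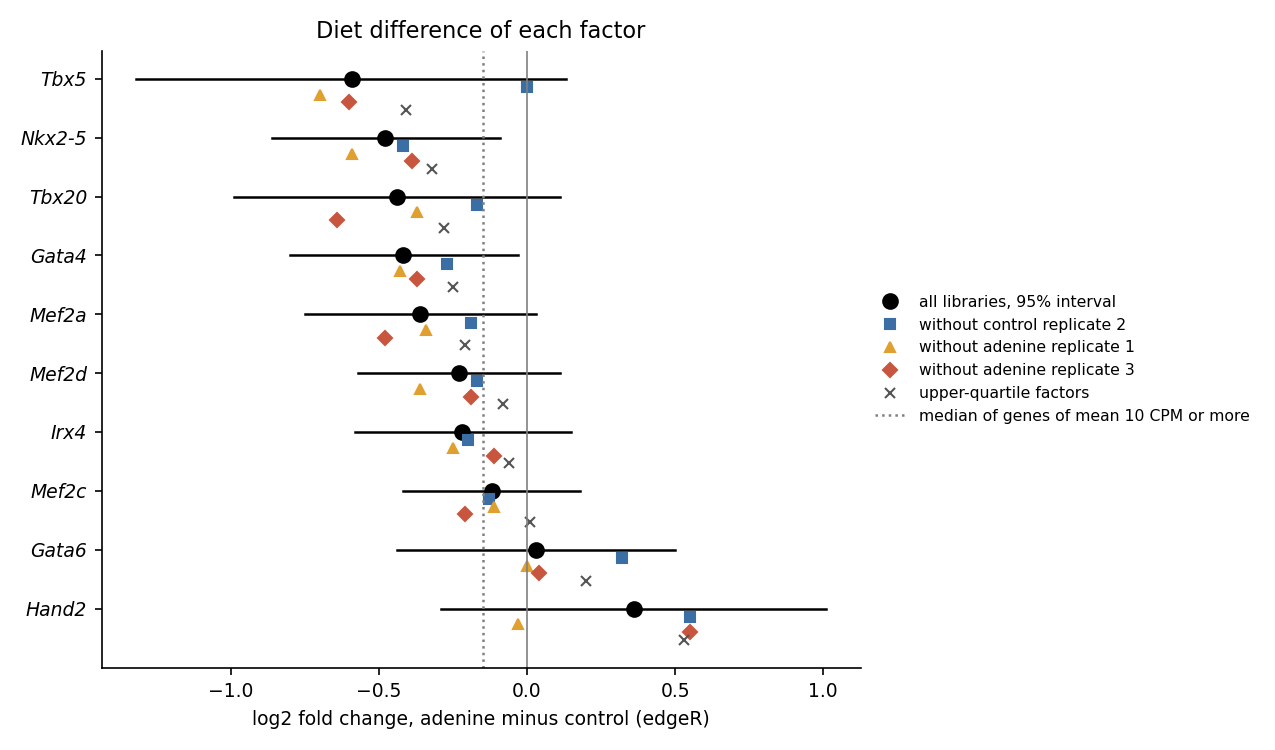
Log2 fold change of each factor, adenine minus control, on the x axis (black point, edgeR; black line, 95% interval), with the values obtained without control 2, adenine 1 or adenine 3 and with upper-quartile factors. The intervals of Nkx2-5 and Gata4 end below 0, those of the other 8 include it, and the value of Tbx5 sits at 0 once control 2 is left out.

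Promoter sequence is shown for Nkx2-5, the member with the lowest p, for Hand2, the member with the largest positive value and an antisense neighbour, and for Mef2a, whose start site carries a match to the motif that MEF2 proteins bind. The sequences are from RefSeq (build GRCm38.p6), written 5′ to 3′ on the strand of the gene, and end at the last base before the start site except in Mef2a, where 10 transcribed bases are included. The Nkx2-5 stretch lies at chr17:26841566-26841815 on the minus strand, that of Hand2 at chr8:57320733-57320982 on the plus strand and that of Mef2a at chr7:67372849-67372958 on the minus strand. The Nkx2-5 stretch falls inside the annotated span of that gene, which begins further upstream at 26845009. No window at that upstream end was searched. Capitals mark matches to 6 motifs searched on both strands.
Nkx2-5: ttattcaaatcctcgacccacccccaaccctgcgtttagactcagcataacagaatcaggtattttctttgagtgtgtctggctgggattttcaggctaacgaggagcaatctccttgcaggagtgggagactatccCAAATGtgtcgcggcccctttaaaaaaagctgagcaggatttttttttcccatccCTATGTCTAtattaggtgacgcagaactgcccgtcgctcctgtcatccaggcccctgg
Hand2: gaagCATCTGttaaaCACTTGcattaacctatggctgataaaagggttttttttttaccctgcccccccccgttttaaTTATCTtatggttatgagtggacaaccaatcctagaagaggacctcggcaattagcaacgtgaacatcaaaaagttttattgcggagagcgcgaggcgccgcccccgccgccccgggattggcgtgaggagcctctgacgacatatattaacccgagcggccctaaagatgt
Mef2a: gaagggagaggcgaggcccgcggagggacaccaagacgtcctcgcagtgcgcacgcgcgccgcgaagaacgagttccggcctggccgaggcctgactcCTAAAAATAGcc

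The search covered 9 windows of 7 members, each from 250 bases before to 50 bases after a start site (Mef2c has 3 windows). Windows of Gata4, Gata6 and Tbx5 were not used here. The GATA motif AGATAA was found in 1 of 9 windows, as TTATCT in Hand2, and in 11.2% of all 32851 windows. A loose form of the MEF2 motif, CTANNNNTA with any base at N, was found in 3 of 9 windows and in 21% of all windows. MEF2 proteins prefer A or T at N, and only the Mef2a match has these alone. In Mef2a the match covers the start site, from 2 bases before it to the 8th base after it. There 2 overlapping matches on opposite strands run together. In Nkx2-5 the loose match CTATGTCTA, with G and C among the bases at N, lies 58 to 50 bases before the start. The E-box CANNTG, the element of basic helix-loop-helix factors, was in 5 of 9 windows (72.3% of all), the T-box motif AGGTGT in 1 (13.7%), the NKX2-5 motif TNAAGTG in 0 (11.5%) and the TATA box TATAAA in 2, both of Mef2c (13.6%). Both Mef2c matches read TTTATA on the strand of the gene, so TATAAA lies there on the opposite strand only. Windows of Mef2d, Irx4, Tbx20 and Mef2a were rich in G and C (72.0%, 70.7%, 68.3% and 62.3%), and those of Mef2c were poor (35.7 to 48.3%), with a median of 52.7% over all windows. A match is a description of letters and not a bound site.

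Nkx2-5, the homeodomain factor that marks cardiac progenitors and stays on in adult muscle, was the member with the lowest p. It is annotated at chr17:26838664-26845009 (GRCm38). Control 1 to control 4 had 78.3, 77.8, 61.8 and 55.1 CPM, and adenine 1 to adenine 4 had 58.5, 42.7, 38.3 and 56.4 CPM. The 4 adenine libraries lay below the control mean and 2 of them below the lowest control, while adenine 1 and adenine 4 fell inside the control range. The means were 68.2 ± 11.6 and 49.0 ± 10 CPM (SD, n = 4 per diet), a log2 fold change of -0.48 (SE 0.18, 95% interval -0.86 to -0.09). It did not pass over all genes (adjusted p = 0.26), and leaving out any 1 library gave -0.59 to -0.39.

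The genes whose library pattern was nearest to that of Nkx2-5 were Actc1, Upf1 and Agpat1. Likeness was the root-mean-square difference of standardised log2 CPM over the 8 libraries, searched over the 8427 other genes that averaged 10 CPM or more. It was 0.143 SD units for Actc1, the cardiac actin gene, 0.161 for Upf1, a helicase of RNA decay, and 0.183 for Agpat1, an enzyme of phospholipid synthesis. Actc1 had 6004 ± 1034 CPM in the controls and 4377 ± 982 CPM on adenine, a log2 fold change of -0.46 (SE 0.24). The log2 fold changes of Upf1 and Agpat1 were -0.3 and -0.31, and none of these genes passed (adjusted p = 0.281 to 0.318).

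Irx4, an Iroquois homeodomain factor that keeps ventricular muscle distinct from atrial muscle, differed little between diets. It is annotated at chr13:73260479-73269608. The controls had 31.7, 28.2, 23.2 and 23.9 CPM and the adenine libraries 23.5, 28.4, 17.4 and 22.8 CPM, in library order. Adenine 3 was the lowest of the 8 libraries, and adenine 2 stood between control 1 and control 2. Its log2 fold change was -0.22 (SE 0.17, 95% interval -0.58 to 0.15, adjusted p = 0.453), and it was -0.11 without adenine 3.

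Gata4, the zinc finger factor best known for the hypertrophic response, had the next lowest p. It spans chr14:63198922-63271692. The controls had 73.0, 88.9, 56.5 and 53.1 CPM and the adenine libraries 49.7, 49.3, 44.2 and 60.0 CPM. Of the adenine libraries 3 lay below every control, and adenine 4 lay above control 3 and control 4. The means of 67.9 ± 16.5 and 50.8 ± 6.6 CPM gave a log2 fold change of -0.42 (SE 0.18, 95% interval -0.80 to -0.03), and the adjusted p was 0.274. Without control 2, the highest library, the value was -0.27. Nearest in library pattern to Gata4 were Txndc15 (0.172 SD units), Gfm2, a mitochondrial translation factor (0.179), and Ntmt1, an N-terminal methyltransferase (0.224), with log2 fold changes of -0.3, -0.3 and -0.21.

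Gata6, the paralog of Gata4 that overlaps with it in function, had a value near 0 with a wide interval. Its span is 11052064 to 11085635 on chromosome 18. The controls spread from 32.3 to 72.3 CPM (45.3, 72.3, 36.3 and 32.3), and the adenine libraries held to 45.0 to 50.5 CPM (48.5, 50.5, 45.0 and 45.8). The adenine libraries lay inside the range of the controls, with a coefficient of variation of 5.35% against 38.8%. This gave a log2 fold change of 0.03 (SE 0.22, 95% interval -0.44 to 0.50, adjusted p = 0.948), and 0.32 without control 2, the highest control.

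The balance of the GATA genes was read per length, as RPKM (CPM per kilobase of annotated exon). Gata4 made up 72.9, 67.2, 72.2 and 73.3% of the summed Gata4 and Gata6 RPKM in the controls and 63.1, 62.0, 62.1 and 68.6% in the adenine libraries. The share was 71.4 ± 2.82% and 63.9 ± 3.13% (SD, n = 4), and the diets overlapped only through control 2 and adenine 4. As a measure built from members it was given no test.

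Tbx5, the T-box factor of the atria and conduction system, had the most negative value and the largest coefficient of variation in the controls (67.8%). It spans chr5:119832668-119885219. Control 2 had 38.5 CPM, against 15, 10.1 and 13.2 CPM in control 1, control 3 and control 4 and 15.3, 11.2, 12.7 and 11.8 CPM in the adenine libraries. Control 2 was 3.01 times the mean of the other controls, 3 of the adenine libraries lay within the range of those 3, and adenine 1 lay just above it. The log2 fold change of -0.59 (SE 0.34, 95% interval -1.32 to 0.13, adjusted p = 0.342) became -0.00 without control 2.

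Control 2, the library with the most Tbx5, was also the highest for 6 of the 8 atrial markers, while Nppa was highest in adenine 3 and Kcna5, a potassium channel gene, in adenine 1. This was not limited to atrial genes. Control 2 was the highest for 7 of 14 fibroblast markers and for the summed 8 epicardial (45.3 CPM) and 8 adipocyte markers (103 CPM). The epicardial markers Upk3b and Msln and the adipocyte marker Adipoq were highest there, but the adipocyte marker Ucp1 was lowest there (0.0339 CPM). The share of all genes that were highest in control 2 was not taken. Myl7, an atrial myosin light chain gene chosen after its values were seen, had 1532 CPM in control 2, and 167, 17.0 and 118 CPM in the other controls. In adenine 1 to adenine 4 it had 151, 2.08, 183 and 2.80 CPM. The 5 libraries with the most Tbx5 were the 5 with the most Myl7 (118 CPM or more), and the other 3 had at most 17.0 CPM. This cut was taken from the same values, and Tbx5 fell only from 12.7 to 11.8 CPM across it. Within the 5 the orders differed, with adenine 3 at place 2 for Myl7 and place 5 for Tbx5. The match is therefore a description and no measure of a link. Myl4 and Sln, an atrial light chain and the atrial sarcolipin gene, were likewise highest in control 2 (2054 and 442 CPM) and lowest in adenine 2 (6.85 and 0.917 CPM). The 8 atrial markers together ran from 946 to 5135 CPM in the controls and from 135 to 2242 CPM on adenine, and 0 of 8 were at 0 reads in any library. Their sum did not follow Tbx5 among the other controls, where control 3 had the least Tbx5 and 1127 CPM of atrial markers, more than control 1 (946 CPM) and control 4 (1025 CPM), with 1043 CPM of Nppa. Of the 8 markers 6 were at negative log2 fold changes (median -2.0, or -0.01 without control 2). The 5 ventricular markers had a median of -0.09. The part of atrial content in the Tbx5 values was not tested. Without control 2, Myl4, Myl7 and Sln stood at -0.38, -0.19 and 0.17, from -2.52, -2.43 and -2.14.

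**Figure D2:**
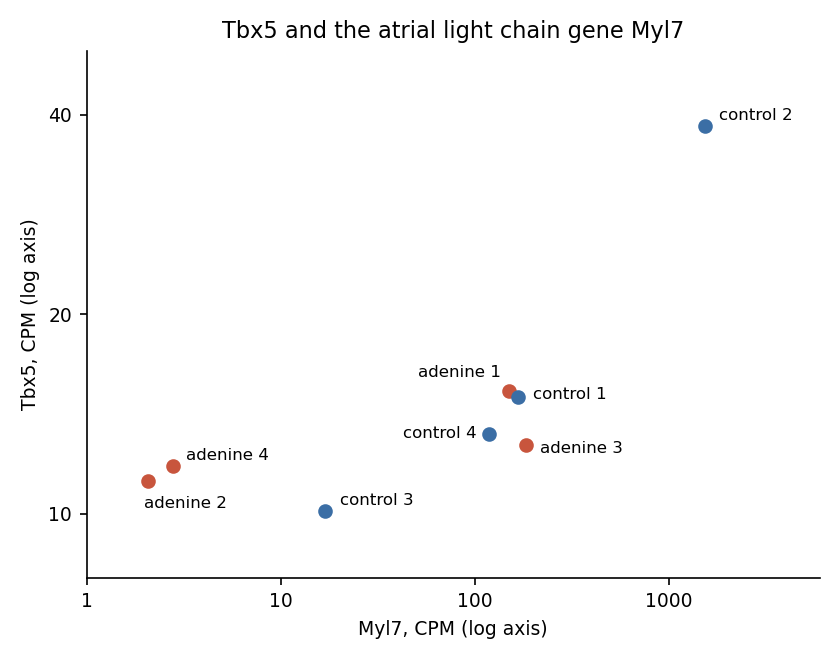
Tbx5 (y axis) against the atrial gene Myl7 (x axis) in CPM on log axes, 1 point per library, blue for control and red for adenine. Control 2 stands alone at 1532 CPM of Myl7 and 38.5 CPM of Tbx5, and the other 7 libraries hold 10.1 to 15.3 CPM of Tbx5 over Myl7 levels of 2.08 to 183 CPM.

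Tbx20, the T-box factor that supports chamber muscle and restrains its relative Tbx2, also peaked in control 2. It spans chr9:24718138-24774303. The controls had 97.1, 138, 76.9 and 54.3 CPM and the adenine libraries 57.7, 55.6, 91.8 and 64.5 CPM. Adenine 3 stood 1.55 times above the mean of the other adenine libraries, and the lowest of the 8 libraries was control 4. The log2 fold change was -0.44 (SE 0.25, 95% interval -0.99 to 0.11, adjusted p = 0.347). It was -0.17 without control 2 and -0.64 without adenine 3. The Tbx5 share of the summed RPKM of both T-box members was 33.4 ± 7.91% in the controls and 33.2 ± 5.91% on adenine.

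Hand2, the basic helix-loop-helix factor of the right ventricle, had the largest positive value, and it rested on 1 library. It spans chr8:57320983-57324633. Adenine 1 had 82.0 CPM, and adenine 2 to adenine 4 had 49.9, 27.7 and 37.3 CPM, against 43.6, 52.8, 27.0 and 30 CPM in the controls. The other adenine libraries lay inside the control range. The log2 fold change of 0.36 (SE 0.30, 95% interval -0.29 to 1.01, adjusted p = 0.483) turned to -0.03 without adenine 1. Exons of the antisense gene Hand2os1 cover 19.6% of the exon bases of Hand2, and with a strand setting not given in the sources used here, reads of both genes cannot be told apart over those bases. Values of Hand2os1 were not analysed here.

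The MEF2 genes encode MADS-box factors that switch on muscle genes and are held in check by class IIa histone deacetylases. Mef2a, a regulator of structural and mitochondrial genes in adult heart, had 118, 165, 111 and 101 CPM in the controls and 91.6, 94.0, 117 and 83.2 CPM on adenine. Of its adenine libraries 3 lay below every control, and adenine 3 lay within the control range. Its log2 fold change was -0.36 (SE 0.18, 95% interval -0.75 to 0.03, adjusted p = 0.303), with -0.19 without control 2 and -0.48 without adenine 3. The gene spans chr7:67231163-67372858, and 2.06% of its exon bases overlap Lysmd4 on the other strand, which held 8.47 to 17.1 CPM.

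Mef2c, the family member that acts earliest in the heart, was the steadiest of the 10. The controls had 53.4, 56.5, 66.6 and 55.4 CPM and the adenine libraries 50.9, 48.1, 62.0 and 52.2 CPM. Of the adenine libraries 3 lay below every control, by small margins, and its highest library was 1.39 times its lowest. Between diets the log2 fold change was -0.12 (SE 0.14, 95% interval -0.42 to 0.18, adjusted p = 0.603). The gene lies at chr13:83504034-83667080.

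Mef2d, which mediates stress-dependent remodelling, had 80.6, 86.4, 77.8 and 63.1 CPM in the controls and 81.6, 59.0, 59.4 and 63.1 CPM on adenine. Adenine 1 stood with the higher controls and the other adenine libraries with control 4. Its log2 fold change was -0.23 (SE 0.16, 95% interval -0.57 to 0.11, adjusted p = 0.406), and -0.36 without adenine 1. It spans chr3:88142372-88172086, and an antisense transcript over 8.87% of its exon bases, 1700113A16Rik, held at most 1.1 CPM.

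**Figure D3:**
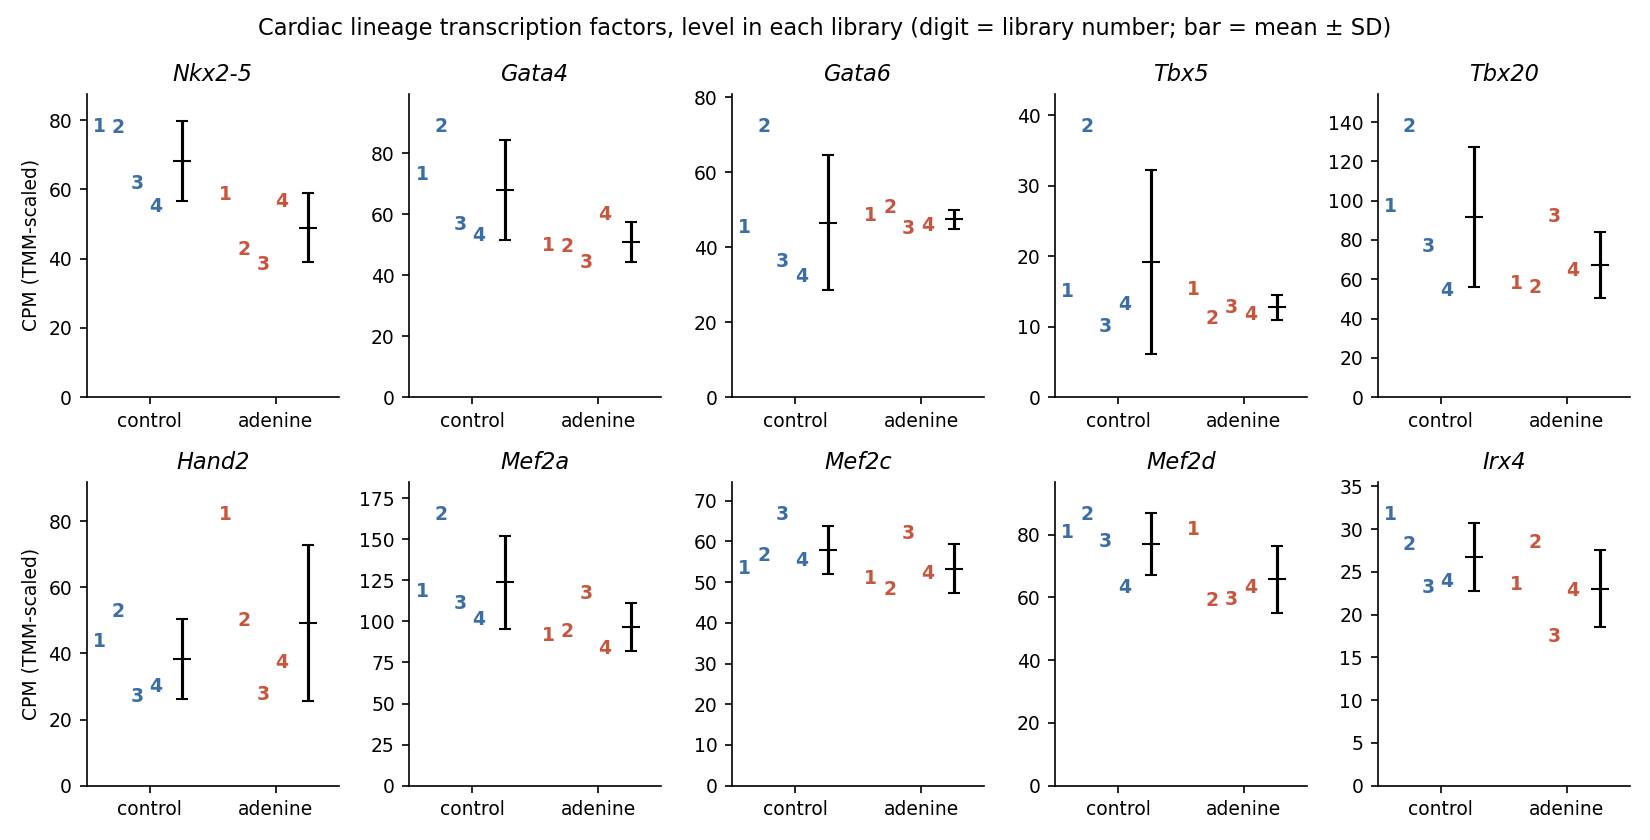
Level of each of the 10 factors in CPM (y axis, from 0), with the library number as the plotting symbol, control in blue and adenine in red, and the mean ± SD as a black bar beside each diet. Control 2 stands highest for Gata4, Gata6, Tbx5, Tbx20, Mef2a and Mef2d, adenine 1 stands highest for Hand2, and the diets overlap in each panel.

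Per length, Nkx2-5 was the most abundant member in both diets, at 39.7 ± 6.78 RPKM in the controls and 28.5 ± 5.82 RPKM on adenine (SD, n = 4). In the controls it was followed by Gata4 (17.4 RPKM), Hand2 (16.3), Mef2d (12.9), Irx4 (10.3), Mef2a (8.44), Tbx20 (7.63), Gata6 (7.15), Tbx5 (4.11) and Mef2c (3.69). Nkx2-5 lay above Gata4 in every control library with no overlap, and the other 8 neighbouring members in this order had overlapping ranges. On adenine Hand2 (20.9 RPKM) came next after Nkx2-5, and Tbx20 (5.62) and Mef2c (3.39) were the neighbours whose ranges did not overlap. Within the MEF2 family, Mef2d took 51.5 ± 2.13% of the summed RPKM in the controls and 52.4 ± 5.62% on adenine, Mef2a 33.5 ± 3.40% and 31.4 ± 4.2%, and Mef2c 15 ± 2.38% and 16.2 ± 1.74%. The shares overlapped between diets for the 3 genes. These levels depend on the exon length used. With the longest transcript as length, Mef2a held the largest MEF2 share (47.0% over the 8 libraries, from 32.5%) and came next after Nkx2-5 in the controls. The fourth family gene, Mef2b, is not a member and held 1.11 to 2.75 CPM.

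**Figure D4:**
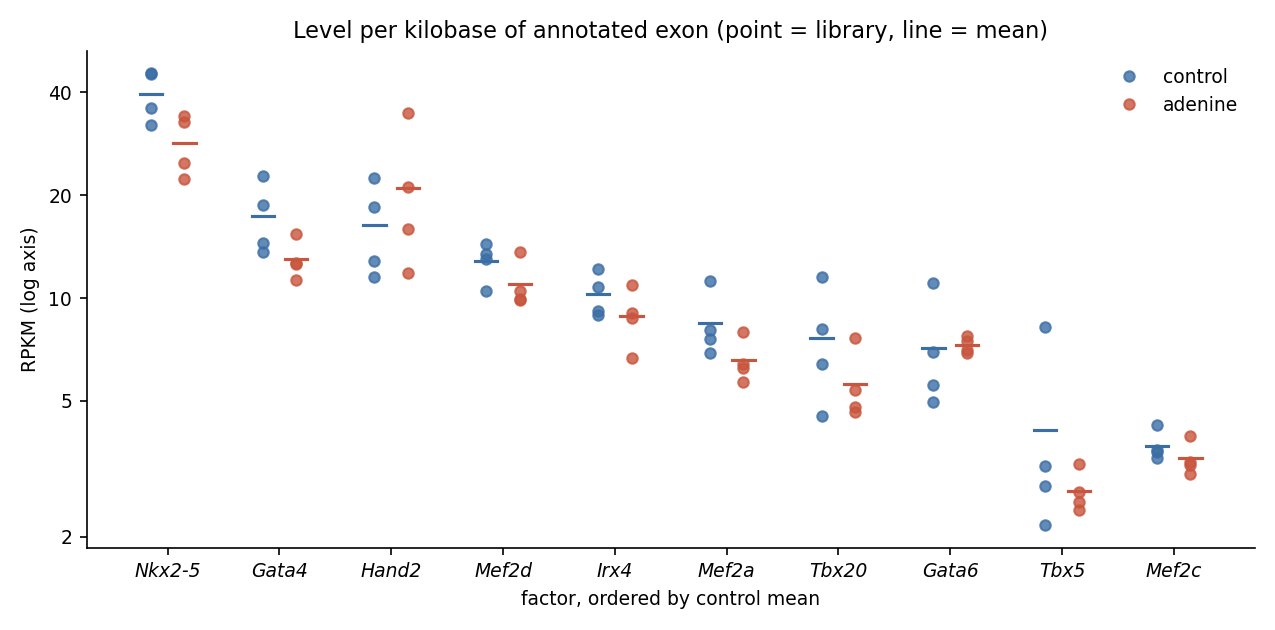
Level of each factor in RPKM on a log axis (CPM per kilobase of annotated exon), points for libraries and short lines for means, control in blue and adenine in red, ordered by the control mean. Nkx2-5 stands above the other factors in the controls, and most neighbouring factors share a range.

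The members also differed between libraries of the same diet. They summed to 636, 804, 548 and 481 CPM in control 1 to control 4 and to 559, 489, 515 and 497 CPM in the adenine libraries. Control 2 was above the control mean for 9 of 10 members, and control 4 and adenine 4 were below it for 10 of 10. The median coefficient of variation of the members was 23.6% in the controls and 15.5% on adenine, against 13.6% and 15.8% over genes that averaged 10 CPM or more. Without control 2 the median log2 fold change of the members was -0.17, and the lowest adjusted p among them was 0.54.

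Adenine 3 differed from the other adenine libraries in its cell markers and in which members were low. Its 14 macrophage markers summed to 3073 CPM (369.7 to 575 in the other adenine libraries, 449 to 777 in the controls), with reads for 14 of 14 in every library. Its heart muscle markers summed to 36541 CPM, the lowest of the 8 libraries, and its 14 fibroblast markers to 5361 CPM, against 1288 to 2282 in the other adenine libraries and 2561 to 3573 in the controls. The fibroblast markers did not move as one there. Adenine 3 lay above every control for 5 of the 14, Postn (1452 CPM), Col3a1 (1262 CPM), Col1a2 (958 CPM), Col1a1 (433 CPM) and Mfap5 (174 CPM). It lay below every control for 8 of the 14. Pdgfra, Tcf21, Dpt, Dcn and Ddr2 were among these 8, and were below every control in the other adenine libraries too. Nkx2-5, Gata4 and Irx4 were lowest in adenine 3, whereas Tbx20, Mef2a and Mef2c were higher there than in the other adenine libraries. The part of cell content in these values was not tested. As a ratio to the summed heart muscle markers, chosen after the values were seen and given no test, Nkx2-5 came to 1.40, 1.21, 1.09 and 1.1 CPM per 1000 CPM of markers in the controls and 0.99, 0.854, 1.05 and 1.03 on adenine. These ranges did not overlap, by a narrow gap (1.09 against 1.05), which held for 1 of 10 members and, in the lower direction, for 0.821% of all genes. In CPM, 3.84% of all genes lay wholly lower. The low marker sum of adenine 3 raises the ratio of every gene there. The ratio therefore cannot show whether Nkx2-5 fell per muscle cell.

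**Figure D5:**
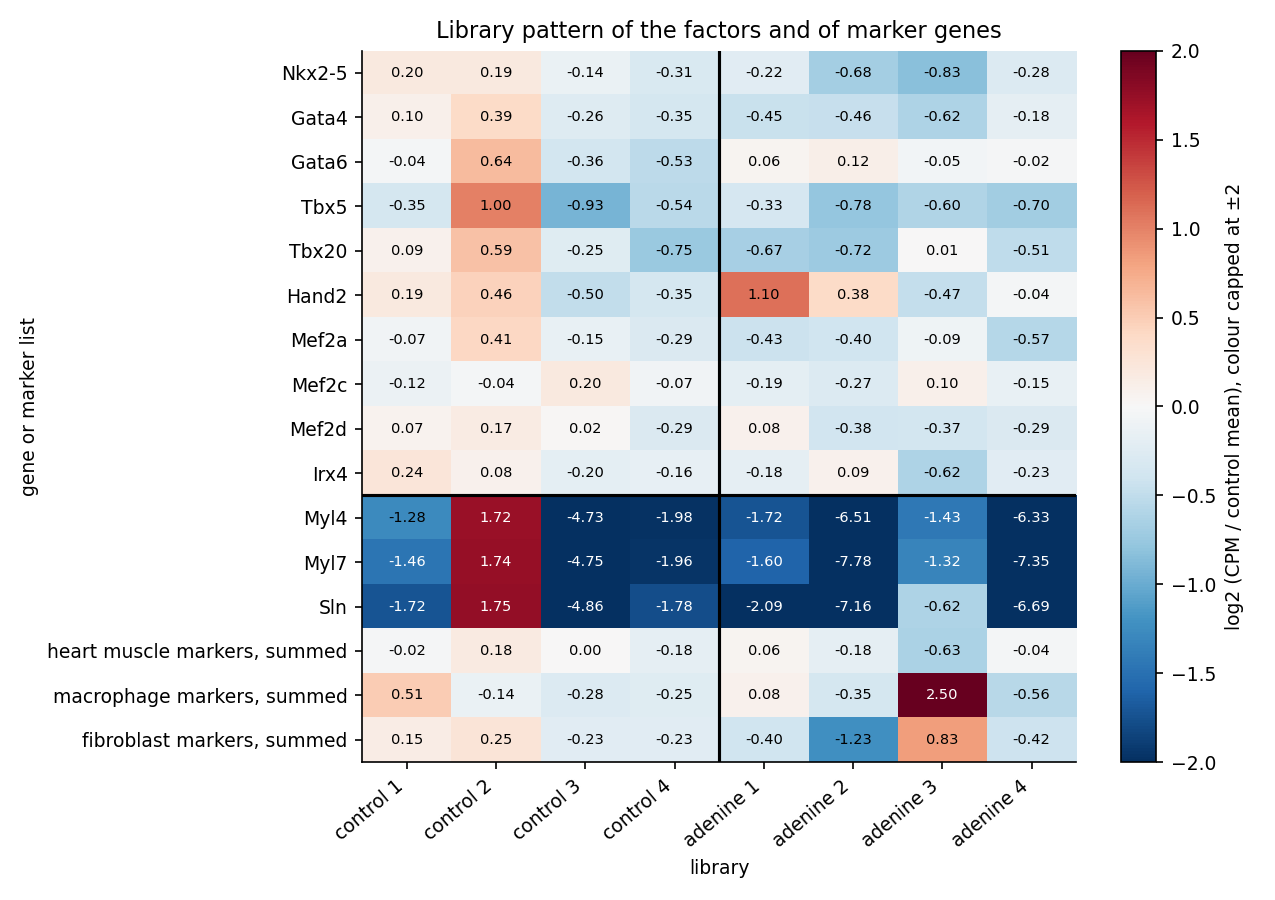
Log2 ratio of each library to the control mean for the 10 factors (above the line), and for 3 atrial genes and 3 summed marker lists (below it), with libraries on the x axis and the colour capped at 2 log2 units. Control 2 is high for most factors and for Myl4, Myl7 and Sln, and adenine 3 is low for Nkx2-5 (-0.83), Gata4 (-0.62) and Irx4 (-0.62) and high for macrophage markers (2.50).

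No other developmental transcription factor of the heart was called by edgeR. Of 35 listed genes 32 were tested, 19 with a negative and 13 with a positive log2 fold change around a median of -0.10. At an unadjusted p under 0.05, 3 were higher and 2 lower, against 10.9% and 6.63% of all genes. Diet ranges were separate for 2 of the 32, both lower on adenine, against 3.84% of all genes. Tcf21, a factor of epicardium-derived fibroblasts, had 22.1, 23.2, 10.4 and 15.9 CPM in the controls and 8.72, 6.79, 9.20 and 10.4 CPM on adenine (log2 fold change -1.03, SE 0.24, adjusted p = 0.142), and its ranges meet at 10.4 CPM to the digits shown. Heyl, a Notch target of vascular muscle, had 21.8 to 25.3 CPM in the controls and 11.2 to 19.8 CPM on adenine (-0.71, SE 0.18, adjusted p = 0.17). DESeq2, but not edgeR, called both (adjusted p = 0.02 and 0.0296).

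Partners and regulators of the members gave 0 edgeR calls among 37 tested genes, with 26 at negative values and a median of -0.10. At an unadjusted p under 0.05, 1 was higher and 6 lower, against 10.9% and 6.63% of all genes. Mapk14, the p38 kinase that phosphorylates MEF2 proteins, had 42.5 to 62.3 CPM in the controls and 33.8 to 42.6 CPM on adenine, which overlapped, with a log2 fold change of -0.45 (SE 0.15, adjusted p = 0.239). Yap1, a growth-control coactivator, had -0.41 (SE 0.16, adjusted p = 0.263). The diets did not overlap for 2 of 37, both lower on adenine, against 3.84% of all genes wholly lower. Both were named after their values were seen. Hdac5, a class IIa deacetylase that represses MEF2 proteins, had 79.6 to 109 CPM in the controls and 53.2 to 78.4 CPM on adenine (-0.42, SE 0.16, adjusted p = 0.265). Wwtr1, the coactivator TAZ, had -0.37 (SE 0.15, adjusted p = 0.271).

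Among 38 textbook targets of these factors in heart muscle, 0 were called by edgeR, 27 were at negative values and the median was -0.09. At an unadjusted p under 0.05, 1 was higher and 3 lower, against 10.9% and 6.63% of all genes. Kcne1, a potassium channel subunit gene, had 12.4, 22.2, 5.29 and 13.5 CPM in the controls and 4.68, 6.30, 3.76 and 5.50 CPM on adenine (log2 fold change -1.41, SE 0.34, adjusted p = 0.152), and DESeq2 called it (adjusted p = 0.00425). Nppb, the natriuretic peptide gene that GATA4 activates under load, had 139, 186, 219.6 and 182 CPM in the controls and 269, 173, 762 and 771 CPM on adenine (1.45, SE 0.40, adjusted p = 0.207). Its adenine 2 library lay inside the control range, and adenine 3 and adenine 4 stood far above. Nppa, the related peptide gene and an atrial marker, had 404, 828, 1043 and 638 CPM in the controls and 545, 94.7, 1683 and 929.8 CPM on adenine, with a log2 fold change of 0.16 that was -0.48 without adenine 3. The diets did not overlap for 1 of the 38, against 3.84% of all genes wholly lower on adenine. That gene was Gja5, a gap junction gene and a target of TBX5 and NKX2-5. It had 11 to 13.9 CPM in the controls and 7.72 to 9.61 CPM on adenine (-0.49, SE 0.15, adjusted p = 0.228).

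Marker lists of the cell types that the tissue could hold gave 0 edgeR calls over the 8 libraries. At an unadjusted p under 0.05, 8 fibroblast, 6 vascular endothelial, 4 mural, 6 erythroid, 2 epicardial and 3 atrial markers were lower. At the same threshold 2 vascular endothelial, 4 macrophage, 3 lymphocyte and 1 atrial marker were higher. From the heart muscle, ventricular and adipocyte lists 0 were either. Over all genes tested 6.63% were lower and 10.9% higher. Of the marker genes named in this paragraph, DESeq2 called Dpt, Tcf21, Rgcc, Tek, Lgals3, Hba-a1 and Hba-a2 (adjusted p = 0.00253 to 0.029). Median log2 fold changes were -0.11 for 12 heart muscle markers (Actc1, above, and Ckm at -0.24), -0.65 for 14 fibroblast markers (Dpt at -1.21 and Tcf21), -0.36 for 16 vascular endothelial markers (Rgcc at 1.24 and Tek at -0.58) and -0.27 for 12 mural cell markers (Vtn at -0.78 and Cnn1 at -1.32). They were 0.72 for the macrophage markers (Lgals3 at 3.27 and Ccr2 at 1.70), 0.60 for 10 lymphocyte markers (Il7r at 2.51 and Ms4a1 at 1.04), -0.44 for 8 epicardial markers (Upk3b at -1.28 and Msln at -1.35) and -0.18 for 8 adipocyte markers (Ucp1 at 1.32 and Adipoq at -1.05). Several of these values rested on 1 library. Without adenine 3 the macrophage median was -0.17, Ccr2 stood at 0.10, Il7r at 1.54 and Lgals3 at 1.69, where edgeR called Lgals3 (adjusted p = 0.00822, and 0.0426 without adenine 4). Without control 2 the epicardial median was 0.07 and the adipocyte median 0.55, with Upk3b at -0.30, Msln at -0.56, Adipoq at 0.46 and Cnn1 at -0.51. For 8 erythroid markers the median was -1.99, with -2.37 for Hba-a2 and -2.34 for Hba-a1, near-identical copies whose reads may have been split. Without control 1, the highest library for both, the median was -1.28 and the genes stood at -1.70 and -1.67. Without adenine 3, edgeR also called Rgcc (1.34, adjusted p = 0.00855) and both globin genes (adjusted p = 0.0204), and the globin genes were called with the replicate number as a block (adjusted p = 0.0383 and 0.0396). Among the chamber markers, the lowest p belonged to Stard10 (-1.87, or -0.86 without control 2) and Bmp10 (-2.48, or 0.31 without control 2) of the atrial list and to Hey2 (-0.23) and Pln (-0.14) of the ventricular list.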

How the data were processed

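Heart RNA of 4 control and 4 adenine libraries was sequenced. The authors deposited unscaled counts of reads for each gene. FastQC 0.11.9, STAR 2.7.6a and GRCm38.p6 appear in the submitters' processing notes, with counting program, annotation and strand setting not given in the sources used here. All members, gene lists and tests were chosen with earlier results of these data known.

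The test was that of edgeR 4.0.16 under R 4.3.3: default filter by group, TMM factors, quasi-likelihood F-test of diet over 8 libraries, and Benjamini-Hochberg adjustment over 20093 genes, with an adjusted p under 0.05 called. Standard errors came from the F statistic, and 95% intervals from its degrees of freedom. Exon lengths and positions came from GENCODE M21 (GRCm38), which matched 27225 of 27304 identifiers. At 15626620 to 33886385 counts per library, counting error is small beside the spread between libraries. The fits were tested on simulated data with changes larger than the value of any member. That test does not show whether changes as small as those of the members would be called. Alternatives were DESeq2 1.42.0, limma-voom (limma 3.58.1), other scalings and filters, each library left out, a replicate block, longest-transcript lengths and, added after seeing the data, removal of both libraries numbered 2. No 2 libraries of a diet agreed within sampling noise (chi-square per gene 20.0 to 96.8).

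Named genes were the 10 members, called genes of each list (up to 4) or otherwise the 2 with the lowest p, and the 3 genes nearest in library pattern to the 2 members with the lowest p. Myl4, Myl7, Sln, Nppa, Kcna5, Hdac5, Wwtr1, Gja5, Pdgfra, Dcn, Ddr2, Postn, Mfap5 and the collagen genes were named after their values were seen.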

Additional observations from a re-analysis of the deposited data

Results flagged for a closer look

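Values of a named gene were compared within each diet by Dixon's ratio of the gap to the range, against its 95% limit for 4 libraries. Of 92 groups checked 10 exceeded it, and none was a group of a member. A member can still rest on 1 library. Tbx5 in control 2 was 3.01 times the mean of the other controls, and its log2 fold change of -0.59 became -0.00 without control 2. The limit gives about 1 in 20 groups by chance, but this count cannot be read against that rate. Myl4, Myl7 and Sln were named after their values were seen, and several flagged genes share the library that stood apart. In the controls, control 2 stood apart for 4 atrial genes: Bmp10 (8.44 CPM, others 0.29 to 0.373), Myl4 (2054 CPM, others 23.5 to 256), Myl7 (1532 CPM, others 17.0 to 167) and Sln (442 CPM, others 4.51 to 39.7). Control 1 stood apart for Hba-a2 (10101 CPM) and Hba-a1 (10539.7 CPM). In the adenine group, adenine 1 stood apart for Rgcc (52.8 CPM), adenine 2 for Upk3b (3.36 CPM, others 2.52 to 2.56) and adenine 3 for Lgals3 (170.3 CPM) and Ccr2 (50.4 CPM).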

How the results depend on the processing

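No member was called under any of the 17 alternatives, and adjusted p-values of members ran from 0.115 (without adenine 3) upward. Over all genes, 8 were called higher and 0 lower, against 18 and 1 with upper-quartile factors, 120 and 152 with DESeq2, 5 and 0 with limma-voom, 8 and 1 with no filter, 6 and 1 without both libraries numbered 2, and 1 to 37 higher and 0 to 30 lower when 1 library was left out (37 and 30 without adenine 3, 21 and 6 without adenine 4, 3 and 2 without control 2, 3 and 0 without adenine 1, 1 and 0 without control 1, control 3 or control 4). The replicate block gave 16 higher and 16 lower, but equal numbers did not deviate together (correlations -0.421 to 0.264 for equal numbers), so they were not taken as pairs.

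Of 170 values of members under the alternatives, 7 turned in sign: Gata6 to -0.06 with DESeq2 and to between -0.12 and 0.32 with 1 library left out, Tbx5 to 0.07 without both libraries numbered 2, Hand2 to between -0.03 and 0.55 with 1 library left out, and Mef2c to 0.01 with upper-quartile factors. Among other named genes, Nppa had 0.16, and -0.41 with limma-voom and -0.20 with the block. With 1 library left out, Nppa ran from -0.48 to 0.53, Bmp10 from -3.05 to 0.31, Sln from -3.56 to 0.17 and Adipoq from -1.39 to 0.46. Myl4, Myl7, Sln and Adipoq had 0.01, 0.21, 0.57 and 0.69 without both libraries numbered 2, and Pln 0.02 with upper-quartile factors. The cause was not tested. With the longest transcript as length, mean RPKM over the libraries moved from 7.22 to 12.4 for Gata6, 7.5 to 19.9 for Mef2a and 3.54 to 8.86 for Mef2c, and shares became 47.0% for Mef2a, 21.4% for Mef2c, 31.6% for Mef2d, 58.4% for Gata4 and 41.6% for Gata6.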
